A study of Mus musculus with 9 samples.

Results

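The L1 family of cell adhesion molecules was followed through tumor and control brain at the level of single mice and cell classes. The family has 4 members, L1cam, Chl1, Nrcam and Nfasc, and these 4 were taken by symbol from the 32285 mouse genes in the count matrices. They were chosen by name and with their levels in these data already known: L1cam marks the human form of this tumor, yet was lower in the mouse tumors. For that reason the difference between whole tumor and whole control libraries is given as a description without a test. Comparisons of any member between tumor and control within a cell class reuse the same libraries and are not independent of that choice. The level of L1cam in progenitor-like cells was known beforehand as well. The test of L1cam between tumor cells and neuron-like cells within tumors is therefore not independent either.

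The data are 5′ droplet single-cell RNA-seq of 9 mice aged 6 to 8 weeks. The 5 tumors came from NestinCreERT2;Fus1 mice (EP ZFTA-RELA), in which a Cre recombinase under the Nestin promoter switches on a ZFTA-RELA fusion allele with a luciferase reporter, and the 4 controls were brains of NestinCreERT2;TdT mice that carry the same Cre driver with a TdTomato reporter. Recombination in both groups is therefore limited to cells in which the Nestin promoter was active and to their progeny. The paper places the recombination of the fusion allele in embryonic radial glia and calls the fusion Nestin-driven. Whether the fusion-allele UMIs used below to define tumor cells follow Nestin activity was not tested. Live Ter119- cells were sorted, which takes out most red cells, and no other cell type was selected.

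L1 family proteins are single-pass transmembrane molecules of the immunoglobulin superfamily. Their outer domains bind the same molecule, other family members, contactins, integrins or matrix on neighboring cells, and a short tail ties them to ankyrin and the spectrin skeleton beneath the membrane. In the nervous system L1cam and Chl1 are known for axon growth, bundling and neuronal migration, whereas Nrcam and Nfasc are also known for building the axon initial segment and the node of Ranvier, where myelinating glia and axon meet.

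In the mm10 (GRCm38) annotation, L1cam (ENSMUSG00000031391) lies at chrX:73853778-73896105 on the minus strand, Chl1 (ENSMUSG00000030077) at chr6:103510586-103750211 on the plus strand, Nrcam (ENSMUSG00000020598) at chr12:44328885-44601964 on the plus strand and Nfasc (ENSMUSG00000026442) at chr1:132564690-132741797 on the minus strand. The fusion partner RELA is a subunit of NF-kB, a transcription factor that binds sites of the general shape GGG and CC with any 5 bases between. The 250 bases before the start that RefSeq (GRCm38.p6) lists first, of 2 listed for L1cam and Nfasc and 1 for Chl1 and Nrcam, are shown for L1cam and Chl1, the members with the largest and the smallest fitted difference between tumor cells and neuron-like cells, each 5′ to 3′ on the gene's own strand. Capitals mark that shape on either strand. The L1cam window is chrX:73880791-73881040 (minus strand) and the Chl1 window is chr6:103510626-103510875 (plus strand). Both windows lie inside the gene bounds given above, which come from another annotation.
L1cam: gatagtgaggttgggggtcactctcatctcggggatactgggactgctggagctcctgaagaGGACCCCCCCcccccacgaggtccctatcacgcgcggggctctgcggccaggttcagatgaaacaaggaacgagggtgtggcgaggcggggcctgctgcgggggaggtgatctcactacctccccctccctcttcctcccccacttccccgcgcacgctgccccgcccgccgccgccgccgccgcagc
Chl1: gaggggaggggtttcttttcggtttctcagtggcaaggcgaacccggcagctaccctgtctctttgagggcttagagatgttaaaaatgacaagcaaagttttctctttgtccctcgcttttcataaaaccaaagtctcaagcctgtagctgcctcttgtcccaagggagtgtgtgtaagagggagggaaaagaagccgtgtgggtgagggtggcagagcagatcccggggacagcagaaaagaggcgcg
The L1cam window held 1 match, the Chl1 window 0, the Nrcam window 5 and the Nfasc window 1. The same shape occurs in 45.8% of 32851 RefSeq promoter windows of this length. Counted on both strands, a GC box (GGGCGG, in 32.7% of windows) and an E box (CANNTG, in 66.2%) each occurred 1 time for L1cam, Nrcam and Nfasc and 0 times for Chl1. These are letter matches and say nothing of binding.

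After filtering, 36023 cells were kept, 20290 from control and 15733 from tumor libraries. The mitochondrial filter was set per library, removed 3389 to 7601 barcodes and cut at unequal levels. Kept cells had mean mitochondrial shares of 7.58 to 8.72% in controls and 10.5, 7.77, 5.16, 2.15 and 3.24% in tumors 1 to 5. The barcodes removed from tumors 4 and 5 averaged 3.67 and 4.84%, below the cells kept in controls. Cells per mouse ranged from 4015 to 6261 in controls and from 1587 to 5101 in tumors, and deposited libraries held 14967680 to 178086164 UMIs. Transcripts of the fusion allele gave 0, 1, 7 and 5 UMIs in the 4 controls and 94, 1819, 143, 12563 and 1910 UMIs in tumors 1 to 5, while tdTomato gave UMIs only in the controls (282 to 935), so all 9 libraries matched their genotype. Pairs among the 8 libraries other than control 4 shared at most 9 cell barcodes, and control 4, whose barcode list is shorter than its matrix, was not checked. Cells fell into 32 clusters, which were named from marker lists without using the 4 members or their partner genes. Neuron-like clusters held 16519 control cells (81.4%) but 1524 cells of tumor libraries (9.69%), and tumor 4 held 1 of them.

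Tumor cells were defined as clusters outside the mature brain and immune classes in which the share of cells with a fusion-allele UMI reached 5 times that of the microglia-like cells of the tumors (8.81%). That limit, 44.1%, took in 5 clusters with shares from 44.2% to 88.6%. The clusters just below it had shares of 24.5% to 40.0% and stayed out of the main definition. Tumors 1 to 5 held 20, 1499, 62, 3894 and 453 tumor cells. In tumor 5 the limit left most progenitor cells out: 1704 cells of cluster 15 had the allele in 45.4%, against 45.3% of its 453 tumor cells, of which 443 were in the cycling cluster 27. Classes with fewer than 30 cells in a mouse were left out of that mouse, so tumor 1 gave no tumor-cell value and tumor 4 no neuronal or astrocytic value.

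In the sums over all kept cells, the 4 members were lower in every tumor than in every control. L1cam was at 92.5, 86.8, 80.3 and 89.9 CPM (UMIs of a gene per 1000000 UMIs) in controls 1 to 4 and at 38.8, 6.35, 19.1, 2.42 and 7.03 CPM in tumors 1 to 5. Its tumor values spread widely, with tumors 1 and 3 highest and tumor 4 lowest, and tumors 1 and 3 were also the pair in which tumor cells were fewest. Chl1 was at 149, 142, 130 and 145 CPM in controls and at 64.9, 64.6, 22, 44.5 and 60.9 CPM in tumors. Here tumor 3 was lowest, and tumors 1, 2 and 5 lay close together.

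The members with roles at the initial segment and node were ordered between the groups in the same way. Nrcam was at 300, 286, 308 and 303 CPM in controls and at 191, 46.3, 100, 55.3 and 83.4 CPM in tumors. Nfasc was at 133, 129, 130 and 125 CPM in controls and at 116, 42.8, 73.3, 55.1 and 39.0 CPM in tumors. Tumor 1 came nearest to the controls for L1cam, Nrcam and Nfasc. Of all 17591 genes tested in this contrast, 61.6% passed the test at an adjusted p of 0.05, 29.4% being lower in tumors, and nothing is read from the members' differences because this contrast was used to choose them. In such sums, fewer cells of a type and less RNA per cell cannot be told apart, which is why the classes were taken separately.

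**Figure D1:**
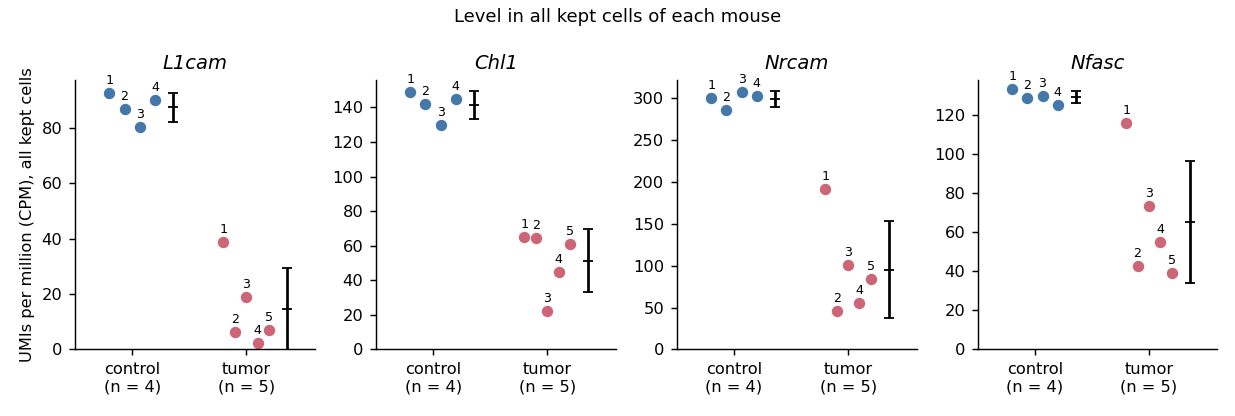
CPM of the 4 members (y axis, starting at 0) summed over all kept cells of each mouse, for 4 controls and 5 tumors. Points are mice and bars the mean with SD. L1cam sits between 80.3 and 92.5 CPM in controls and between 2.42 and 38.8 CPM in tumors.

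In neuron-like cells none of the 4 members passed the test between tumor and control. L1cam was at 99.4, 96.3, 90.4 and 97.7 CPM in the neuron-like cells of controls 1 to 4 and at 109, 74.3, 181 and 71.4 CPM in those of tumors 1, 2, 3 and 5. The controls lay within the tumor range, tumor 3 was highest and tumors 2 and 5 lay below all controls. Across 15189 genes the comparison of tumor with control neuron-like cells (edgeR quasi-likelihood test, Benjamini-Hochberg adjustment) called 16.2% of genes, 8.04% higher and 8.14% lower, and 0 of the 4 members. The 2457 genes behind that share became 1170 to 1365 when any single control was left out. At an unadjusted p under 0.05 it gave 1 member, Chl1, as did limma voom, which called 0 members after adjustment, and DESeq2 called 1, again Chl1. For L1cam the log2 difference was 0.03 ± 0.23 (SE, n = 4 and 4 mice, adjusted p = 0.941), and its sign and call changed without tumors 1 and 3 (log2 -0.53, adjusted p = 0.0424).

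Chl1, the close homolog of L1cam, had the lowest adjusted p of the members in neuron-like cells but did not pass. It was at 152, 149, 134 and 149 CPM in controls and at 117, 141, 91.4 and 71.4 CPM in tumors 1, 2, 3 and 5, so that tumor 2 alone overlapped the control range. The log2 difference was -0.55 ± 0.22 (SE, adjusted p = 0.108), and without tumor 2 it was -0.77 with an adjusted p of 0.0186. Nrcam was at 314, 298, 324 and 314 CPM in controls and at 342, 273, 358 and 227 CPM in tumors (log2 -0.18 ± 0.19, adjusted p = 0.550), with tumor mice on both sides of the controls. Nfasc was at 131, 130, 133 and 126 CPM in controls and at 200, 155, 193 and 125 CPM in tumors (log2 0.26 ± 0.18, adjusted p = 0.357), with 3 tumors above and tumor 5 just below all controls.

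The neuronal subtypes behind these means differed between the groups. Of neuron-like cells in tumor libraries 77.7% sat in cluster 5, which held 0.0121% of control neuron-like cells, whereas control cells were spread over 8 clusters, the largest holding 25.5%. As a description within the controls, L1cam was highest in cluster 13, led by Ntng1 and Prkcd, at 209 ± 30.8 CPM (SD, n = 4) against means of 56.0 to 109 CPM in the other 7. Among these 8 clusters the lowest L1cam level, 56.0 ± 3.55 CPM, was in cluster 0, led by Nefm. Chl1 was highest in cluster 10, led by Adarb2 (193 ± 17.2 CPM), and lowest in cluster 13 (97.0 ± 25.9 CPM), so the cluster with most L1cam was the one with least Chl1. Nrcam ran from 188 ± 7.15 CPM in cluster 0 to 439 ± 32.7 CPM in cluster 6, and Nfasc from 95.0 ± 9.06 CPM in cluster 0 to 183 ± 18.3 CPM in cluster 4. Cluster 7 was left unnamed and outside the neuron-like class, although the neuron list matched it best. Its 938 control cells had L1cam at 49.35 ± 9.85 CPM, below cluster 0, and Nrcam at 443.5 ± 33.7 CPM, above cluster 6. Cluster 28, also unnamed but with 5 general neuron markers raised, had Nrcam at 510 CPM in 111 cells of tumor 3. In cluster 5 of the tumors, L1cam was at 107 ± 36.0 CPM and Nfasc at 190 ± 45.3 CPM. What part the unequal mix of clusters has in the tumor-to-control values was not tested.

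**Figure D2:**
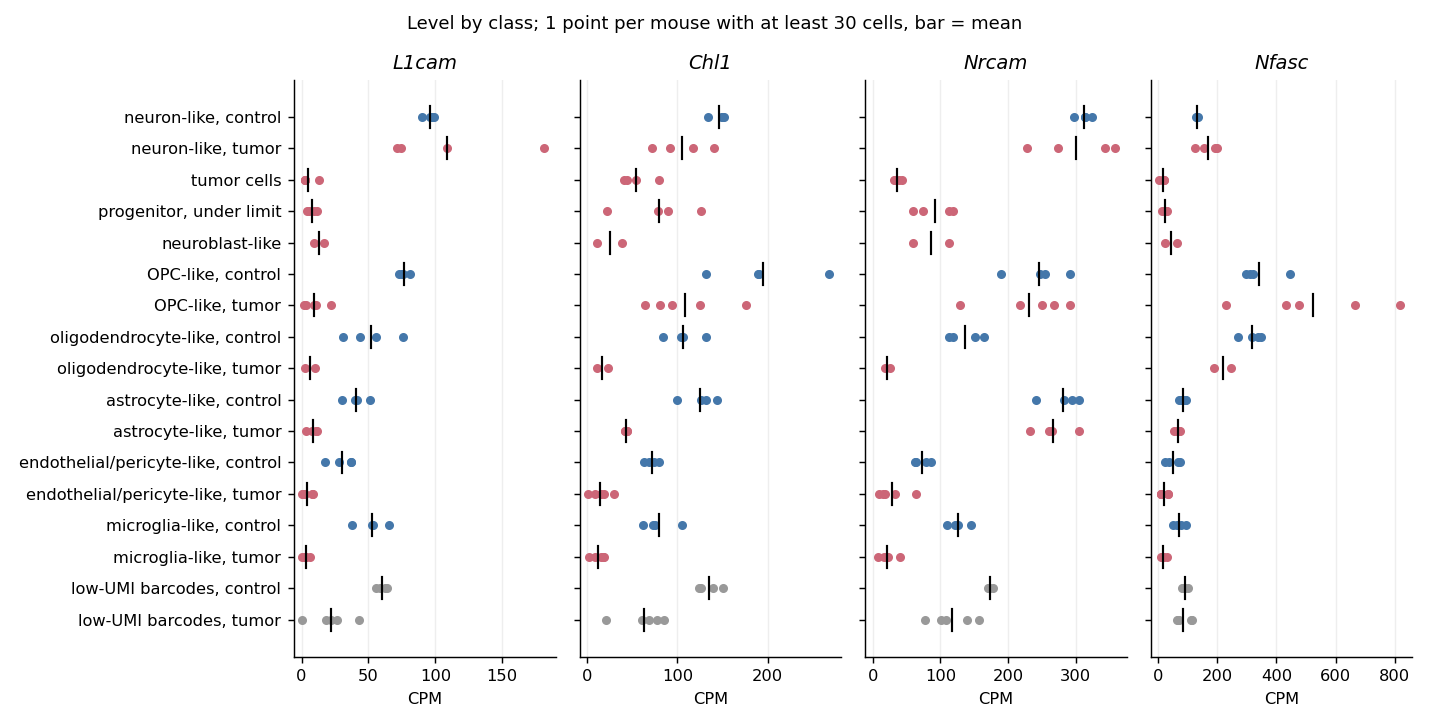
CPM (x axis, starting at 0) of each member by cell class and group (y axis), with 1 point per mouse that had at least 30 cells, a bar at the mean, and the barcodes with the fewest UMIs in gray. In tumor libraries L1cam reaches 71.4 to 181 CPM in neuron-like cells and 2.23 to 13.1 CPM in tumor cells.

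Within the same tumors, tumor cells had far less L1cam, Nrcam and Nfasc than neuron-like cells, while Chl1 was lower in each pair but was not called. L1cam was at 2.43, 13.1, 2.54 and 2.23 CPM in the tumor cells of tumors 2, 3, 4 and 5, from 23, 8, 76 and 6 UMIs. Tumor 3, with 62 tumor cells, stood apart from the other 3, and every value lay below every neuron-like value. The 8 UMIs of tumor 3 came from few of its 62 tumor cells, by the share given below. The test compared both classes within tumors 2, 3 and 5 with mouse as a block and called 54.3% of 10490 genes, 26.7% higher and 27.5% lower in tumor cells, and 3 of the 4 members were called, each lower. L1cam was 18.5-fold lower in tumor cells (log2 -4.21 ± 0.38 SE, adjusted p = 8.92e-05), and across 15 alternative settings the log2 difference ranged from -4.49 to -3.79. The L1cam level in progenitor-like cells was known beforehand, so this p-value is not that of an independent test.

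Nrcam, which clusters sodium channels with Nfasc at the node, was at 30.9, 32.8, 42.5 and 38.3 CPM in tumor cells of tumors 2 to 5. These values lay close together and were 6.28-fold below the neuron-like cells (log2 -2.65 ± 0.32, adjusted p = 0.000217). The difference was -1.66 to -1.93 with doublets kept, at resolution 2.0, with at least 500 genes per barcode, at a mitochondrial limit of 10%, with the wider definition and with tumor cells called by their own fusion-allele UMIs, and was called in each. Nfasc was at 19.0, 3.28, 19.0 and 17.1 CPM, with tumor 3 lowest, and was 8.17-fold lower (log2 -3.03 ± 0.47, adjusted p = 0.000676). The Nfasc call was lost when cells were clustered at a resolution of 2.0, where 2 OPC-like clusters (oligodendrocyte precursor cells) with 718 cells entered the tumor cells (log2 -0.52, adjusted p = 0.319). OPC-like clusters also entered with doublets kept (-0.96), with at least 500 genes per barcode (-0.998) and at a mitochondrial limit of 10% (-2.33). There Nfasc was still called, as it was with tumor cells called by their own fusion-allele UMIs (-2.27). Tumor 1, absent from the main fit, entered in each alternative setting named here for Nrcam and Nfasc. The parts of the added mouse and of the added clusters were not tested.

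Chl1 was at 79.5, 41.0, 43.9 and 53.9 CPM in the tumor cells of tumors 2 to 5. Within each of the 3 paired tumors this was below the neuron-like cells, with 79.5 against 141 CPM in tumor 2, 41.0 against 91.4 CPM in tumor 3 and 53.9 against 71.4 CPM in tumor 5. The log2 difference was -0.40 ± 0.31 (SE, adjusted p = 0.287), and the range over the alternatives was -0.63 to -0.01, with no call in any of 15. The missed threshold in 3 pairs does not show that the levels were alike.

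**Figure D3:**
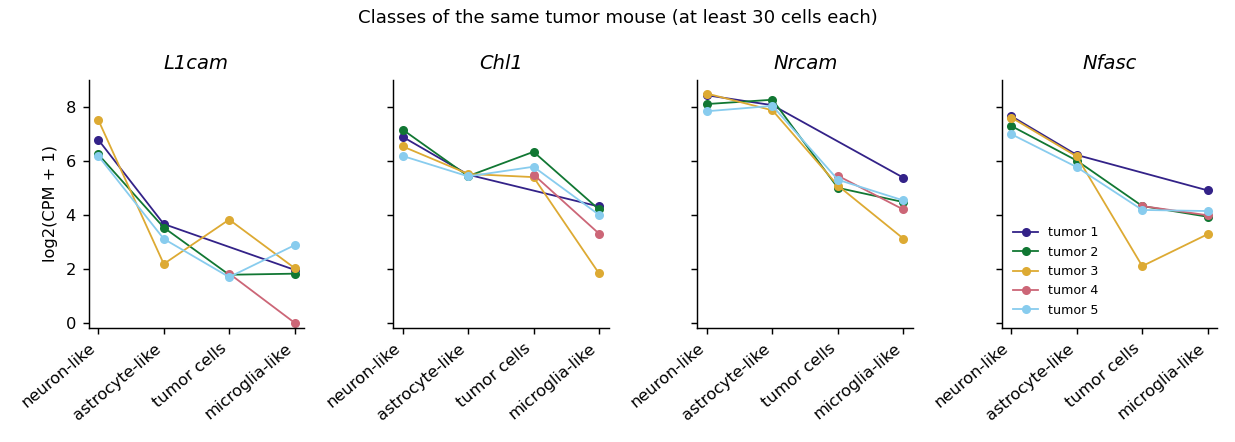
Levels of the 4 members as log2(CPM + 1) (y axis) in neuron-like, astrocyte-like, tumor and microglia-like cells of the same tumor, with lines joining the classes of 1 mouse. The L1cam lines drop between neuron-like and tumor cells in tumors 2, 3 and 5, and the Chl1 lines differ least between those classes.

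Few tumor cells had any L1cam UMI. Of 5928 tumor cells 87 had an L1cam UMI (1.47%, 95% exact binomial interval 1.18 to 1.81%, median 6465 UMIs per cell), against 1.30% of microglia-like cells in the tumors (median 4508 UMIs). Microglia-like cells were chosen as a class presumed to hold little of the members, and whether they lack L1cam was not tested. With each cell thinned to 1000 UMIs the shares were 0.304% and 0.324%, and 9.26% in neuron-like cells of the tumors. These shares pool mice, and the order was not the same in each: before thinning, tumor cells of tumors 2 to 5 had 1.47, 3.23, 1.46 and 1.33% of cells with an L1cam UMI, and microglia-like cells 1.33, 1.77, 0 and 2.87%. Tumor cells had the higher share in tumors 2, 3 and 4 and the lower in tumor 5. For Chl1, 24.9% of tumor cells had a UMI against 5.62% of microglia-like cells, or 5.36% and 1.24% after thinning. Intervals cover counting error only.

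A direct comparison of tumor cells with microglia-like cells in tumors 2 to 5, added after the data were seen, called 46.1% of 12743 genes, 24.4% higher and 21.7% lower in tumor cells, and 1 of the 4 members. Microglia-like cells had Chl1 at 18.8, 17.4, 2.56, 8.87 and 15 CPM in tumors 1 to 5. Chl1 was 4.07-fold higher in tumor cells (log2 2.03 ± 0.30 SE, adjusted p = 0.000966). L1cam was at 2.89, 2.53, 3.07 and 6.32 CPM in the microglia-like cells of tumors 1, 2, 3 and 5 and had 0 UMIs in 377 cells of tumor 4, which allows up to 1.27 CPM. Its log2 difference was 0.28 ± 0.75 (SE, adjusted p = 0.780), and it turned to -0.22 without tumor 4. Nrcam (0.71 ± 0.27, adjusted p = 0.0589) and Nfasc (-0.25 ± 0.30, adjusted p = 0.530) did not pass.

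The tumor-cell clusters were not alike. Cluster 23, led by Tac2, Igfbpl1 and Lhx1 and marked by the neuroblast list, held most of the L1cam UMIs of tumor 4, 69 of 76. Its L1cam level was 21.8 CPM in tumor 2 (from 4 UMIs) and 22.4 CPM in tumor 4. Cluster 24, led by Spp1, Dlk1, H19 and Igf2, had L1cam at 2.20 CPM in tumor 2 and 0.120 CPM in tumor 4 (1 UMI in 1193 cells), with Chl1 at 83.5 and 61.6 CPM in those tumors. In the cycling cluster 30 L1cam was at 1.66 and 0.161 CPM and Chl1 at 70.8 and 26.7 CPM in tumors 2 and 4. The clusters with the least L1cam therefore still carried Chl1 UMIs. The progenitor cluster just under the fusion-allele limit (cluster 15) had L1cam at 5.52, 9.34, 11.2 and 3.76 CPM and Chl1 at 89.8, 126, 22.5 and 79.0 CPM in tumors 1, 2, 3 and 5. In tumor 5 the Chl1 level of cluster 15 lay above the neuron-like cells (71.4 CPM), and Nrcam stood there at 74.7 CPM against 38.3 CPM in the tumor cells of tumor 5, whose values thus describe a mostly cycling minority. With the wider definition, which takes in this cluster and the neuroblast-like cluster 22, the log2 difference from neuron-like cells was -3.79 for L1cam, -1.93 for Nrcam, -2.61 for Nfasc and -0.41 for Chl1. The wider definition also brought tumor 1 into the fit. No test was made between clusters.

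Against astrocyte-like cells of the same tumors, the glial class to compare with, tumor cells had less Nrcam and Nfasc. Astrocyte-like cells of tumors 1, 2, 3 and 5 had Nrcam at 265, 305, 232 and 261 CPM, above every tumor-cell value. The test within tumors 2, 3 and 5 called 31.3% of 9786 genes, 14.2% lower in tumor cells, and 2 of the 3 members that passed the count filter. Nrcam was 6.86-fold lower in tumor cells (log2 -2.78 ± 0.34 SE, adjusted p = 1.11e-06), with a range of -2.91 to -1.67 over 15 alternatives, each called, and Nfasc 4.22-fold lower (log2 -2.08 ± 0.44, adjusted p = 0.000889). The Nfasc difference turned to 0.80 at resolution 2.0 and to 0.27 with doublets kept, and was -0.03 with at least 500 genes per barcode, none of them called. It was -1.42 at a mitochondrial limit of 10% and -1.25 with tumor cells called by their own fusion-allele UMIs, both called. In the latter setting astrocyte-like cells with a fusion-allele UMI (3.475, 5.56, 10.3 and 13.1% in tumors 1, 2, 3 and 5) were counted on both sides. For Nrcam as for Nfasc, it is therefore not a comparison of separate cells. The alternative fits given here for Nfasc each took in tumor 1, and the fit with at least 500 genes per barcode also tumor 4. Chl1 was at 43.8, 42.1, 44.6 and 41.9 CPM in the same astrocyte-like cells and did not pass (log2 0.46 ± 0.36, adjusted p = 0.355). L1cam fell below the count filter in this comparison.

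Between tumor and control, astrocyte-like cells differed in L1cam and Chl1 but not detectably in Nrcam or Nfasc. L1cam was at 40.2, 41.3, 30.1 and 51.2 CPM in controls and at 11.6, 10.5, 3.52 and 7.61 CPM in tumors 1, 2, 3 and 5. The groups did not overlap. Of 8083 genes 29.3% were called, 14.6% lower in tumors, and 2 of the 4 members. L1cam was 4.74-fold lower in tumors (log2 -2.25 ± 0.39 SE, adjusted p = 0.000469), with a difference of -2.83 without tumor 1 and -2.91 with at least 500 genes per barcode, both called. Across 18 alternatives the L1cam difference ranged from -2.91 to -1.80 and was called in each. Chl1, at 99.0, 131, 126 and 144 CPM in controls, was 2.76-fold lower (log2 -1.47 ± 0.22, adjusted p = 0.000157), again without overlap. Its difference ranged from -1.57 to -0.89 over 18 alternatives and was called in each. The barcodes with the fewest UMIs, which mix free RNA with poor cells, had Chl1 at 151, 140, 124 and 126 CPM in controls. They were lower in tumors, at a mean of 62.6 CPM, and the part of free RNA was not tested. Nrcam stood at 241, 295, 305 and 282 CPM in controls (log2 -0.02 ± 0.21, adjusted p = 0.957), and Nfasc at 77.4, 88.6, 71.4 and 93.9 CPM in controls and 73.2, 63.2, 70.4 and 53.3 CPM in tumors (log2 -0.26 ± 0.22, adjusted p = 0.404). Of the control cells of this class 99.5% were in cluster 8, and of those in tumor libraries 99.7% were in cluster 17.

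Microglia-like cells, the resident immune cells of the brain, had all 4 members lower in tumors than in controls. Tests of this difference reuse the libraries in which the members were chosen and are not independent of that choice. The class held different clusters in the groups, with 93.3% of control cells in cluster 9 and 99.8% of those in tumor libraries in cluster 25, and the part of this split in the differences was not tested. L1cam was at 65.0, 53.0, 53.7 and 37.9 CPM in control microglia-like cells, above all 5 tumor values. The test called 41% of 8566 genes, 22.1% lower in tumors, and all 4 members, each lower. L1cam was 14.0-fold lower (log2 -3.81 ± 0.50 SE, adjusted p = 0.000163), Chl1 4.74-fold lower (log2 -2.25 ± 0.41, adjusted p = 0.00112), Nrcam 4.52-fold lower (log2 -2.18 ± 0.33, adjusted p = 0.000382) and Nfasc 3.31-fold lower (log2 -1.73 ± 0.30, adjusted p = 0.000826). The barcodes with the fewest UMIs, which mix free RNA with poor cells, moved in the same direction for L1cam, at 63.9, 62.5, 55.3 and 58.9 CPM in controls and at 42.8, 21.8, 26.2, 0.581 and 18.3 CPM in tumors. Chl1 (mean 135 CPM in controls and 62.6 CPM in tumors) and Nrcam (173 and 117 CPM) were also lower in these barcodes without overlap, whereas Nfasc overlapped, at 88.9 ± 9.44 CPM (SD, n = 4) in controls and 84.8 ± 24.8 CPM (n = 5) in tumors. In controls the L1cam levels of microglia-like and astrocyte-like cells lay below those of these barcodes, except in the microglia-like cells of control 1, and the part of free RNA in the differences was not tested.

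**Figure D4:**
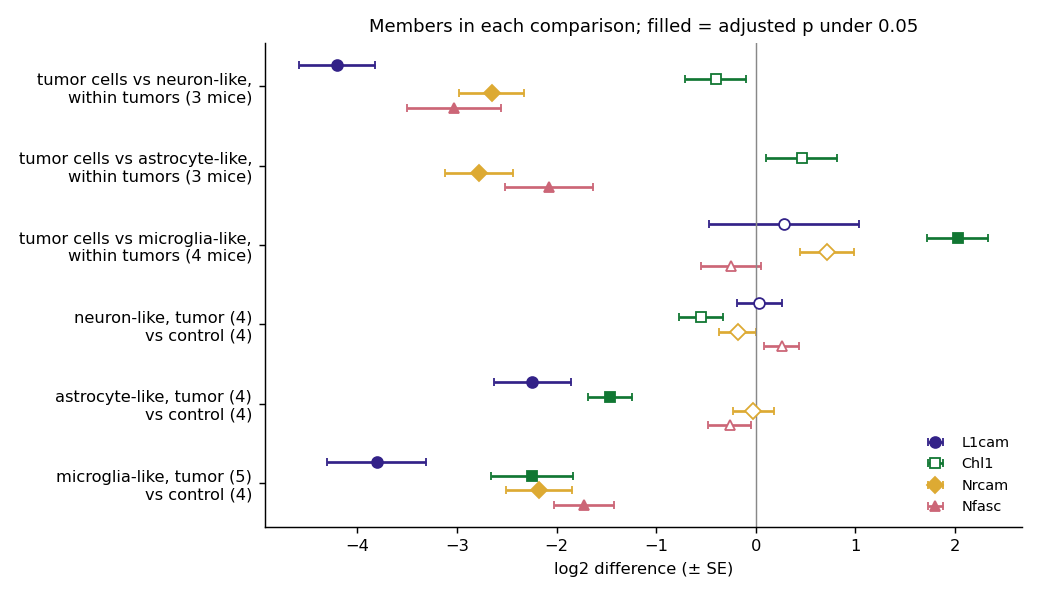
Fitted log2 differences (x axis) with SE for the 4 members in each comparison tested, filled where the adjusted p was below 0.05. L1cam stands at -4.21 in tumor cells against neuron-like cells and at 0.03 in tumor against control neuron-like cells.

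The fitted tumor-to-control difference of L1cam was not the same in neuron-like and astrocyte-like cells. A test of class by condition in the 8 mice with both neuron-like and astrocyte-like cells, added after the data were seen, called 1457 of 11631 genes. The log2 difference in neuron-like cells exceeded that in astrocyte-like cells by 2.41 ± 0.46 for L1cam (SE, adjusted p = 0.00215). For Chl1 it was 0.77 ± 0.30 (adjusted p = 0.101), for Nfasc 0.53 ± 0.28 (adjusted p = 0.239) and for Nrcam -0.16 ± 0.28 (adjusted p = 0.784), none of them past the threshold. The test reuses the libraries by which L1cam was chosen, and each class held different clusters in tumors and controls. L1cam in control astrocyte-like cells (30.1 to 51.2 CPM) lay below the barcodes with the fewest UMIs (55.3 to 63.9 CPM), which were also lower in tumors. The part of free RNA and of the clusters in this difference was not tested.

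By class means, Nfasc was most abundant in the oligodendrocyte lineage, where its glial isoform is known to hold the myelin loops to the axon. Neuron-like cells had lower means, at 130 CPM in controls and 168 CPM in tumors. Among OPC-like cells it was at 445, 309, 320 and 296 CPM in controls and at 820, 433, 665, 477 and 228 CPM in tumors 1 to 5. The tumor values lay on both sides of the controls, with tumor 1 highest and tumor 5 lowest. Mature oligodendrocyte-like cells had Nfasc at 337, 271, 348 and 318 CPM in controls and at 189 and 246 CPM in tumors 1 and 2, the tumors with at least 30 such cells. L1cam in OPC-like cells was at 80.9, 73.0, 75.4 and 75.7 CPM in controls and at 9.42, 2.02, 10.7, 3.69 and 22 CPM in tumors, without overlap. These levels rest on 38 UMIs over the 4 controls and 21 over the 5 tumors. The barcodes with the fewest UMIs had mean L1cam of 60.1 CPM in controls and 21.9 CPM in tumors, and the part of free RNA was not tested. No test was planned for these classes, and they held different clusters in the groups: 172 of 175 control OPC-like cells were in cluster 16, led by Vcan and Pdgfra, and 690 of 703 in tumor libraries in cluster 29, led by Gpr17. OPC-like cells carried fusion-allele UMIs in 0 to 47.5% of cells by tumor, highest in tumor 4, so they are not a class free of the allele.

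A list of 51 partner genes known to bind, anchor or cut L1 family proteins was followed in the same fits. In tumor cells against neuron-like cells, 48 were tested, of which 11 were higher, 25 lower and 12 not called (26.7% and 27.5% of all genes were higher and lower), with a median log2 difference of -1.09 against -0.04 over all genes. Contactins, adhesion molecules held in the membrane by a lipid anchor that pair with the family on axons, were lower in 8 of 8 together with their partners, with Cntn5 at -6.24, Cntn4 at -4.68 and Cntnap1, a paranodal partner, at -3.38 on the log2 scale. Of 9 anchors, 6 were lower, among them Sptbn4 (-5.21) and Ank3 (-4.30), the spectrin and ankyrin of the initial segment. The other 3, Ezr (2.53), Msn (2.79) and Rdx (1.51), which link membrane proteins to actin, were higher. Cd24a (2.69), an adhesion molecule of immature cells, the receptor kinase Egfr (2.44), the integrin subunit Itgb1 (1.81) and the matrix proteoglycan Ncan (1.44) were also higher, and the guidance receptor Plxna4 (-3.72) was lower. Adjusted p-values of the genes given here with values ran from 7.76e-05 for Sptbn4 to 0.00202 for Rdx (edgeR).

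**Figure D5:**
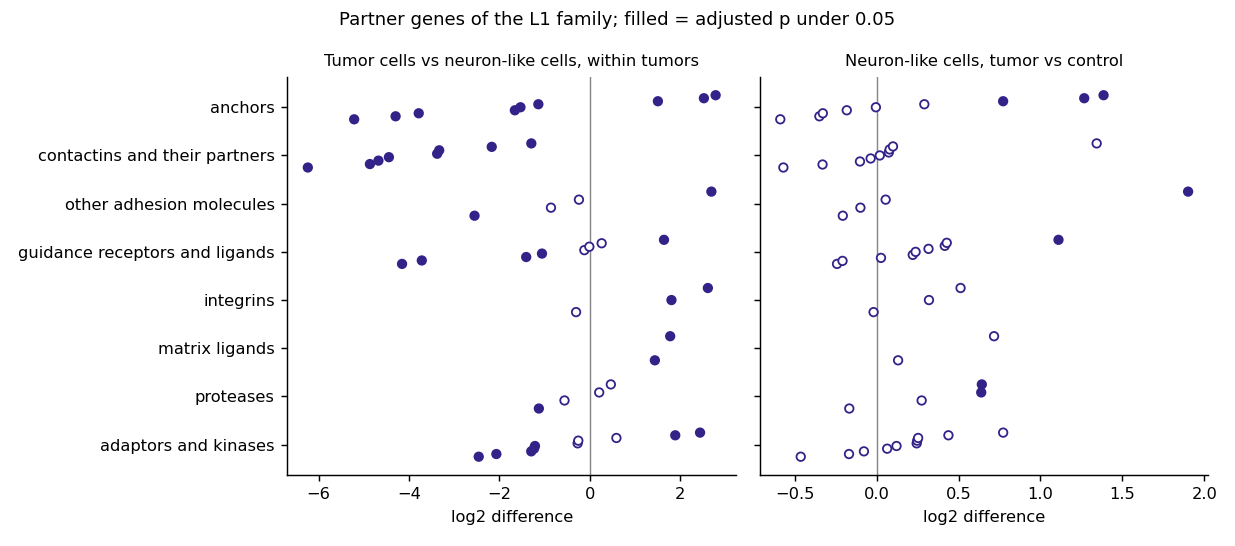
Fitted log2 differences (x axis) of the partner genes, 1 point per gene in rows by list and filled where the adjusted p was below 0.05, for tumor cells against neuron-like cells (left) and for neuron-like cells of tumors against controls (right). On the left the contactins and their partners lie below 0 and 3 anchors above it, and on the right 7 genes are filled.

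In neuron-like cells of tumors against controls, 50 partner genes were tested (edgeR). Of these 7 were higher and 0 lower, against 8.04% higher and 8.14% lower over all genes, with a median of 0.11 against 0.02 over all genes. At an unadjusted p under 0.05, 12 were higher and 3 lower. After adjustment limma voom called 7 higher and 0 lower, and DESeq2 11 higher and 1 lower. Among the 7 higher genes of edgeR were Cd24a (1.90), Msn (1.39), Ezr (1.27), the guidance receptor Plxna3 (1.11), Sptbn4 (0.77) and the protease Adam17 (0.64). Msn stood at 69.7 ± 17.9 CPM in tumor cells, at 14.7 ± 9.0 CPM in neuron-like cells of tumors and at 5.06 ± 0.61 CPM in those of controls. Ezr and Cd24a were likewise abundant in tumor cells, at 136 ± 36.6 and 101 ± 70.8 CPM, and what part free RNA of tumor cells has in these differences was not tested.

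In the remaining comparisons partner genes were called in both directions, and the share of all genes called higher and lower is given beside each count. Tumor cells against astrocyte-like cells had 2 of 39 higher, Cd24a (3.0) and Itgb1 (1.27), and 6 lower, led by Alcam (-2.0), Itgav (-1.86) and Ptprz1 (-1.60), against 17.1% and 14.2% of all genes. Astrocyte-like cells of tumors had 6 of 37 higher than control, led by Ezr (2.01), Msn (2.19) and Itgav (0.79), and 9 lower, led by Ank3 (-2.10), Cntnap2 (-2.43) and Cntn2 (-1.94), against 14.7% and 14.6%. Microglia-like cells of tumors had 4 of 38 higher, led by Msn (1.34), Sdcbp (1.15) and Ezr (2.12), and 19 lower, led by Alcam (-3.00), Cntnap1 (-2.58) and Dlg4 (-2.0), against 18.8% and 22.1%. Tumor cells against microglia-like cells had 17 of 43 higher, led by Sema3f (2.68), Fgfr1 (2.17) and Ncam1 (2.35), and 11 lower, led by Msn (-2.51), Nrp1 (-2.69) and Itgb3 (-5.09), against 24.4% and 21.7%. Over all kept cells 17 of 51 were higher in tumors, led by Msn (3.55), Egfr (2.73) and Ezr (2.86), and 19 lower, led by Dlg1 (-1.65), Sema3a (-2.39) and Cntnap2 (-2.95), against 32.2% and 29.4%, so that the count of higher genes was near the share over all genes.

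Across 18 class profiles, each the mean log2(CPM + 1) of a class in control or tumor mice, the genes most like each member were ranked among 14457 genes. These are descriptions without a test, since the profiles share mice, depth and free RNA. L1cam was followed most closely by Add2 (Pearson r = 0.965), Ksr2 (0.963), Ankrd34b (0.960), 9930021J03Rik (0.953) and B230334C09Rik (0.946). Chl1 was nearest to Pnmal2 (0.925), Nrn1 (0.916), Lrrn2 (0.911), Fndc5 (0.911) and Tceal5 (0.905). Nrcam was nearest to Dclk1 (0.949), Tnik (0.948), Ctnnd2 (0.947) and Caskin1 (0.942), and Nfasc to Dusp15 (0.937), Sorcs1 (0.928), Kctd4 (0.918), Vldlr (0.914) and Il1rap (0.901). Among the members themselves Chl1 and Nrcam were most alike (0.835), and L1cam and Nfasc least alike (0.50), with L1cam and Chl1 at 0.645.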

How the data were processed

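Single-cell 5′ RNA-seq of 5 tumors and 4 control brains was analyzed. The authors deposited raw, unnormalized UMI counts for each gene in each barcode, made with Cell Ranger (6.1.2 in the matrix headers, 7 in the submitters' processing notes, which also name Scanpy 1.8.2 and mm10). In control replicate 4 the feature and barcode lists are shorter than the matrix, so its genes were taken from the lists of the remaining libraries and its barcodes by column. Groups came from the genotype labels, and p-values measure the spread between mice.

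Per library, barcodes were ranked by UMIs, the top 10000 taken, and those with 200 to 6000 genes kept. The component with the higher mitochondrial share in a Gaussian mixture of mitochondrial share and gene number (scikit-learn 1.9.0) was removed. The barcodes with the highest Scrublet doublet scores were then removed, in a number set by the barcodes left and not by a score threshold. Cells were clustered in Scanpy 1.11.5 (Leiden, resolution 1.0). A cluster was named when at least 3 markers and most of a list were 2-fold above the median cluster, and a marker of that list was among its 10 leading genes. Neuron clusters did not need most of a list. For them, at least 3 of the 7 general neuron markers and a leading gene from any neuron list were required in its place. Cluster 1, with 24.7% of control neuron-like cells, had 3 of the 7. Fusion-allele UMIs defined tumor cells, and classes needed 30 cells per mouse. Low-UMI barcodes were the 3000 smallest of each library.

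Counts were summed per mouse and class and tested with edgeR 4.0.16 in R 4.3.3 (TMM, filterByExpr, quasi-likelihood F test, Benjamini-Hochberg adjustment over all genes tested, threshold 0.05), with mouse as a block within tumors. Steps were tested on simulated data. Alternatives were DESeq2 1.42.0, limma voom 3.58.1, no low-count filter, other cell filters and resolutions, 50 cells per class, each mouse left out, the replicate block, tumor cells called by their own fusion-allele UMIs, and a wider tumor-cell definition, which adds clusters at 2 times the microglia-like share of the same tumor or more in each tumor with at least 30 of their cells. The correlations of the deviations of same-numbered mice from their group means were 0.0917, 0.029, -0.0147 and 0.0485 over 13979 genes. Replicates differed by more than sampling noise (lowest chi-square per degree of freedom 4.42).

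The members, the 51 partner genes and the marker lists were chosen with earlier results of these data known, and the naming rule, the wider definition, the comparison with microglia-like cells and the interaction test were set after the data were seen. Values are named for the 4 members in every comparison, for the 6 partner genes with the smallest p per direction in the first 2 comparisons and the 3 in the others, and for the 5 genes most like each member, except that 2 genes the rule selects are not reported here. Adam17 and Rdx were added to the named genes to complete their counts.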

Additional observations from a re-analysis of the deposited data

Results flagged for a closer look

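In 64 groups of 4 or 5 mice examined for a value far from the rest, 4 held such a value, and chance gives about 1 in 20. Tumor cells of tumor 3 had L1cam at 13.1 CPM, against 2.54 CPM in the nearest of the other 3 tumors, from 8 UMIs held by few of the 62 cells. The same cells had Nfasc at 3.28 CPM, below the nearest value of 17.1 CPM. OPC-like cells of control 1 had Nfasc at 445 CPM, above the nearest value of 320 CPM. Neuron-like cells of control 3 had Chl1 at 134 CPM, below the nearest value of 149 CPM.

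The tumor-to-control difference of L1cam was larger in astrocyte-like than in neuron-like cells by a test of the difference itself, with a gap of 2.41 on the log2 scale (edgeR, adjusted p = 0.00215). That test was added after the data were seen and reuses the libraries by which L1cam was chosen. The causes of these values were not tested.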

How the results depend on the processing

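Over all alternatives 332 member tests kept their direction and their side of the threshold, 14 changed direction, and with the direction kept 3 came to pass and 2 no longer passed. Of the 14, L1cam in neuron-like cells without tumors 1 and 3 also came to pass, and Nfasc against astrocyte-like cells also lost its call at resolution 2.0 and with doublets kept. In all, 101 counts of called genes stayed within 1.5 times while 9 did not. In tumor cells against neuron-like cells, L1cam ranged from -4.49 to -3.79 with the adjusted p at most 0.000969, and Nrcam from -2.94 to -1.66. Both were called in all 15 alternatives, which are not all distinct. Within tumors, the fit without tumors 1 and 3 repeats that without tumor 3, as the main fit lacks tumor 1. With 50 cells per class the fit against neuron-like cells repeats the main fit. Nfasc dropped to -0.52 at resolution 2.0 and was no longer called. It stayed called at -0.96 with doublets kept, -0.998 with at least 500 genes per barcode and -2.33 at a mitochondrial limit of 10%. OPC-like clusters entered the tumor cells and tumor 1 entered the fit in all 4 of these settings, and the cause was not tested.

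In neuron-like cells of tumors against controls, 2457 genes were called, and 1170 to 2944 when a mouse was left out. Without controls 1, 2, 3 and 4 in turn the count was 1282, 1197, 1365 and 1170. With the replicate block (mice 1 to 3 of each group) it was 1220 (476 higher, 744 lower). L1cam there ranged from -0.25 to 0.15 when a mouse was left out and was -0.026 with limma voom, -0.079 with no filter on low counts, -0.015 at a mitochondrial limit of 10% and -0.53 without tumors 1 and 3 (adjusted p = 0.0424), against 0.03. Chl1 ranged from -0.77 to -0.42 over mice left out and passed with DESeq2 (-0.56, adjusted p = 0.0355) and at the mitochondrial limit of 10% (-0.69, adjusted p = 0.0231). Nfasc was -0.017 without tumors 1 and 3.

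In tumor cells against astrocyte-like cells, 3062 genes were called, 1769 to 2731 when a mouse was left out (1769 without tumor 5) and 1587 with no replicate block for mouse. Nfasc there was 0.27 with doublets kept, 0.80 at resolution 2.0 and -0.03 with at least 500 genes per barcode, each with tumor 1 added. L1cam, under the count filter, ranged from -1.78 to 0.17 in the alternatives that kept it, with no call. In astrocyte-like cells of tumors against controls, 2366 genes were called, 1472 with the replicate block and 1428 with the same mice and no block, and Nrcam ranged from -0.11 to 0.10 when a mouse was left out (0.01 without control 3, 0.10 without tumor 3) and was 0.070 without tumors 1 and 3 and 0.072 at resolution 2.0. At a mitochondrial limit of 10% this comparison could not be fitted, as no control cluster was astrocyte-like. Against microglia-like cells, L1cam was -0.22 without tumor 4 and 0.62 without tumor 2, against 0.28. Causes were not tested except where the construction shows them.

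Same-numbered mice did not deviate together, so the numbers were taken as names and the block as a setting only. L1cam in tumor cells rests on 6 to 76 UMIs per tumor, and neuron-like cells of tumors on 178 to 918 cells, so small differences were not detectable.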
